A study of Mus musculus with 18 samples.

Results

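Interleukin receptors decide which T cell growth and effector signals a regulatory T cell (Treg) can receive. The RNA of 10 receptor genes was followed in splenic Tregs of Chd8-/- and WT mice. The genes are Il2ra, Il2rb and Il2rg, which encode the 3 chains of the IL-2 receptor, together with Il7r, Il4ra, Il21r, Il1rl1, Il6ra, Il18r1 and Il10ra. The rule names them as receptors for interleukins, and they were chosen with earlier results of these data known. All 10 of 10 were found among the 35865 genes listed under a single name, and all 10 were among the 15240 genes tested, those reaching 1 TPM, a measure of transcript abundance scaled to gene length and library depth, in 2 or more libraries.

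CHD8 is a chromatin remodelling protein of the chromodomain helicase family. The study deleted Chd8 in Tregs with a Cre recombinase and yellow fluorescent protein (YFP) expressed together from the Foxp3 locus, so deletion was limited to cells that express Foxp3 or once expressed it. The YFP+ cells were sorted from splenic CD4+ T cells of young, sex-matched littermate mice, and RNA-seq libraries of 2 Chd8-/- and 2 WT mice were compared, 1 library per mouse. The study describes early and fatal inflammation in Chd8-/- mice, and its part in the differences between genotypes was not tested. The labels give the Chd8-/- libraries the genotype CHD8Flox/FloxFoxp3YFP-Cre and the WT libraries CHD8flox/floxFoxp3YFP-Cre/+, that is, homozygous floxed Chd8 with heterozygous Cre. The study instead describes WT mice with unmodified Chd8 and with Foxp3 YFP-Cre, heterozygous in some of the females. The copy number of Cre may differ between the genotypes, and its part in the differences was not tested. The titles and the study agree on which libraries are WT, and this grouping was used. Both groups therefore carry YFP-Cre, and all samples are labelled as injected with Poly IC, on which the study's methods give no details. No label gives the strain.

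Chd8 RNA was 14.9 and 11.4 TPM in the Chd8-/- libraries and 24.7 and 27.6 TPM in the WT libraries. The groups did not overlap, and the Chd8-/- mean was 0.503 times the WT mean (log2 fold change -0.95 ± 0.29 SE, limma adjusted p = 0.455, unadjusted p = 0.0276). These values cover the whole gene (GRCm38, chr14:52198151-52258042) and do not show the floxed exons separately. Foxp3, which defines Tregs, was 232.1 and 205.3 TPM in the Chd8-/- libraries and 202.8 and 215.4 TPM in the WT libraries. Chd8-/- replicate 2 stood apart from the other libraries. Its correlation with them across genes was 0.84 to 0.86, against 0.897 to 0.919 among the other 3 (genes are not independent replicates). The 7 myeloid markers summed to 1640.7 TPM in this library, to 199.3 and 220.8 TPM in the WT libraries and to 33.2 TPM in Chd8-/- replicate 1. The 4 erythroid markers summed to 1585.5 TPM, to 324.6 and 309.9 TPM and to 8.5 TPM in the same order. Both sums were thus highest in one Chd8-/- library and lowest in the other. Single genes weighed heavily, as Lyz2 alone was 1360.3 TPM in Chd8-/- replicate 2. The erythroid gene Alas2 was 7.5 TPM there, 8.0 TPM in Chd8-/- replicate 1 and 15.0 and 21.5 TPM in the WT libraries. The 5 B cell markers summed to 139.6 TPM in Chd8-/- replicate 2 and to 29.7 to 43.8 TPM in the others. The 6 CD8 T and NK markers went the other way, with 95.8 TPM in Chd8-/- replicate 1, 59.4 TPM in Chd8-/- replicate 2 and 84.0 and 59.7 TPM in the WT libraries. The sort for YFP was meant to remove such cells. The part of this RNA in the differences between genotypes was not tested, and values without Chd8-/- replicate 2 are given where they differed by over 1.5 times. The estimated depth was about 13200000 and 9200000 reads on genes in the Chd8-/- libraries and 9300000 and 10400000 in the WT libraries. The X-inactivation transcript Xist was 500.2 to 843.3 TPM and 4 Y-linked genes were listed at 0 in all 4 libraries, although the study describes both sexes in each genotype.

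As background, IL-2 is bound with high affinity by a complex of alpha (Il2ra, CD25), beta (Il2rb) and common gamma (Il2rg) chains, and Tregs depend on it for survival and for continued Foxp3 expression. The common gamma chain is shared with the receptors for IL-4, IL-7 and IL-21, and these receptors signal through JAK1, JAK3 and STAT proteins. Resting Tregs are known for high CD25 and low IL-7 receptor, and ST2 (Il1rl1) marks tissue and effector Tregs. IL-6 signals through its receptor chain and gp130 (Il6st) to STAT3.

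None of the 10 receptor genes was called as different between the genotypes at an adjusted p of 0.05 by limma, and the share called among all genes tested was 0.0%. At an unadjusted p under 0.05, 1 of the 10 was higher in Chd8-/- Tregs (Il7r) and 1 was lower (Il6ra), where 3.9% of all genes tested were higher and 6.3% were lower. The log2 fold change reached 1 upwards in 1 member, against 5.12% of all genes, and -1 in 0 members, against 11.6% of all genes. Without Chd8-/- replicate 2 these counts were again 1 and 0. In 2 members (Il2rb and Il7r) the lower Chd8-/- value exceeded the higher WT value, in 2 (Il6ra and Il21r) the reverse held, and in 6 the groups overlapped. Of all genes tested 14.8% lay above in this sense and 27.8% lay below. The split of the members depended on the scaling, since with library medians set equal or with scaling to the T cell genes Cd3e, Cd3g and Cd4, 5 members lay above and 1 below. These scalings also raised the median of all genes, from -0.15 to 0.03 and to 0.07. The shares of all genes above and below with them are not given here, so the counts of 5 and 1 cannot be set against 14.8% and 27.8%. By log2 fold change 6 members were higher and 4 lower in Chd8-/- Tregs, with a median of 0.14 beside -0.15 for all genes tested. With 2 libraries against 2, an exact two-sided permutation test of a single gene cannot give a p below 0.333. In bulk RNA, fewer cells with a transcript and less transcript per cell cannot be told apart.

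**Figure D1:**
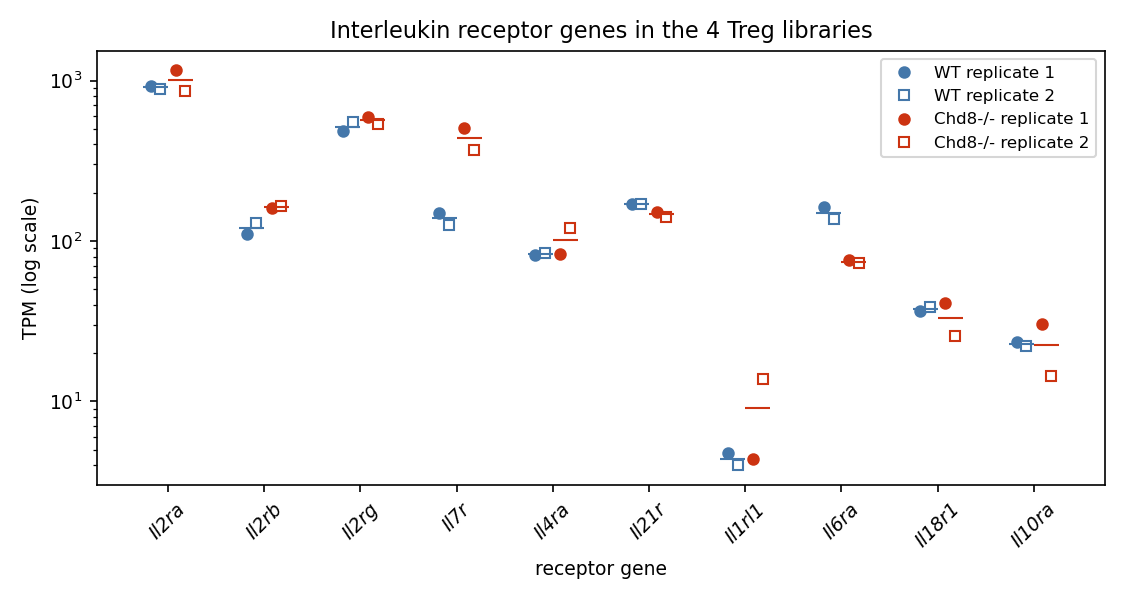
TPM of the 10 interleukin receptor genes in each library on a log axis, with points for the 2 Chd8-/- and the 2 WT libraries. Il7r was 366.8 and 504.5 TPM in the Chd8-/- libraries against 126.7 and 149.7 TPM in the WT libraries, and Il6ra was 72.8 and 75.6 TPM against 136.2 and 162.2 TPM, while the points of the 2 groups lay close together for Il2ra and Il2rg.

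TPM are scaled by transcript length, so levels may be compared between genes if reads cover whole transcripts, which was not checked. In WT Tregs the order of the mean levels was Il2ra, Il2rg, Il21r, Il6ra, Il7r, Il2rb, Il4ra, Il18r1, Il10ra and Il1rl1. The values of neighbours in this order did not overlap between the WT libraries, except Il6ra and Il7r, and Il7r and Il2rb, whose values overlapped. In Chd8-/- Tregs the order was Il2ra, Il2rg, Il7r, Il2rb, Il21r, Il4ra, Il6ra, Il18r1, Il10ra and Il1rl1, and only Il18r1 and Il10ra overlapped as neighbours. Il7r stood at rank 5 in WT and at rank 3 in Chd8-/- Tregs, and Il6ra at rank 4 and at rank 7. Il7r made up 6.44% of the summed TPM of the 10 genes in WT and 17.0% in Chd8-/- Tregs. The share of Il2ra was 42.3% in WT and 39.4% in Chd8-/- Tregs, and that of Il6ra was 6.95% and 2.9%. The sum itself was 2803.6 and 2315.2 TPM in the Chd8-/- libraries and 2144.2 and 2146.8 TPM in the WT libraries.

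Il2ra encodes the alpha chain CD25 and was the most abundant of the 10 receptors in every library (chr2:11642792-11693194, GRCm38 positions here and for the other members). Its TPM was 1156.3 and 860.5 in the Chd8-/- libraries and 924.3 and 889.3 in the WT libraries. The 2 Chd8-/- values lay on either side of the WT values. The log2 fold change was 0.14 ± 0.20 SE (limma adjusted p = 0.837), and it was -0.08 without Chd8-/- replicate 1 and 0.35 without Chd8-/- replicate 2. It was 0.32 with library medians set equal and 0.36 with scaling to the T cell genes. About 34479 and 20107 reads lay behind the Chd8-/- values and 19965 and 20350 behind the WT values, so counting error was small beside the spread between mice. The common gamma chain gene Il2rg (chrX:101264385-101268255) was 596.5 and 534.1 TPM in the Chd8-/- libraries and 481.7 and 548.5 TPM in the WT libraries. These groups overlapped too, with a log2 fold change of 0.13 ± 0.17 SE (limma adjusted p = 0.807). That of Il2rg was 0.21 without Chd8-/- replicate 2, 0.04 without WT replicate 1, 0.31 with library medians set equal and 0.35 with scaling to the T cell genes.

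Il2rb, the signalling beta chain shared by the IL-2 and IL-15 receptors (chr15:78479256-78511621), was 160.4 and 165.1 TPM in the Chd8-/- libraries and 110.9 and 128.6 TPM in the WT libraries. Both Chd8-/- libraries were above both WT libraries, by a fold of 1.36 between the means. The log2 fold change was 0.44 ± 0.18 SE, which did not pass the test (limma adjusted p = 0.518, unadjusted p = 0.0671), and with any 1 library removed it ranged from 0.34 to 0.55. Per common gamma chain, Il2rb was 0.269 and 0.309 in the Chd8-/- libraries and 0.23 and 0.234 in the WT libraries, and these ratios did not overlap. The ratio of Il2ra to Il2rg was 1.94 and 1.61 against 1.92 and 1.62. That ratio was nearly the same in the 2 genotypes and differed more between mice of one genotype than between the genotypes. The IL-15 receptor alpha gene Il15ra, whose product presents IL-15 to Il2rb and Il2rg, was 4.7 and 8.0 TPM in the Chd8-/- libraries and 3.3 and 4.4 TPM in the WT libraries (log2 fold change 0.57 ± 0.44 SE, limma adjusted p = 0.69, and 0.24 without Chd8-/- replicate 2).

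The largest difference among the 10 genes was that of Il7r, which encodes the alpha chain of the IL-7 receptor, CD127 (chr15:9506159-9529941). Il7r was 504.5 and 366.8 TPM in the Chd8-/- libraries and 149.7 and 126.7 TPM in the WT libraries. Each Chd8-/- library lay well above both WT libraries, and the means were 435.6 ± 97.4 TPM (SD, n = 2) and 138.2 ± 16.3 TPM (SD, n = 2), a fold of 3.15. The log2 fold change was 1.64 ± 0.23 SE, with an unadjusted p of 0.00162 and a limma adjusted p of 0.373, so it did not pass the test over all genes. With any 1 library removed it was 1.41 to 1.87, and the estimated reads behind the 4 values were 11459 and 6529 in Chd8-/- and 2463 and 2209 in WT. Of the 1541 genes with a mean of at least 100 TPM, a limit chosen after the values were seen, Il7r had the 15th highest log2 fold change. Per common gamma chain, Il7r was 0.846 and 0.687 in Chd8-/- Tregs and 0.311 and 0.231 in WT Tregs. Per alpha chain of the IL-2 receptor, it was 0.436 and 0.426 against 0.162 and 0.142. In both ratios the genotypes were separated. Crlf2, whose product pairs with the IL-7 receptor alpha chain to bind TSLP, was 9.4 and 9.7 TPM in the Chd8-/- libraries and 5.7 and 2.2 TPM in the WT libraries (log2 fold change 1.19 ± 0.50 SE, limma adjusted p = 0.525), and the log2 fold change was 0.65 without WT replicate 2.

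For the receptor genes furthest from equality, Il7r and Il6ra, and for Il2ra, the most abundant, the 250 bases before the start of a RefSeq transcript are shown on the strand of the gene (RefSeq, GRCm38.p6), with matches to 2 motifs in capitals. The motifs were TTCNNNGAA, the core bound by STAT proteins, and CACGTG, an E-box, and each reads the same on both strands. The window of Il7r is chr15:9529877-9530126, minus strand, with a STAT motif 142 bases before the transcript start at 9529876. This start lies inside the gene span given for Il7r, which ends at 9529941.
Il7r: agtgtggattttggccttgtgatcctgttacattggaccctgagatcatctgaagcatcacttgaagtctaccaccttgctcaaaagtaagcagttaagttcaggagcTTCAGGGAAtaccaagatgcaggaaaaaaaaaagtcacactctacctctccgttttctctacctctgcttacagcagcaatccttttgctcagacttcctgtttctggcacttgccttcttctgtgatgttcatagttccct
The window of Il6ra is chr3:89913197-89913446, minus strand, with an E-box 24 bases before the start.
Il6ra: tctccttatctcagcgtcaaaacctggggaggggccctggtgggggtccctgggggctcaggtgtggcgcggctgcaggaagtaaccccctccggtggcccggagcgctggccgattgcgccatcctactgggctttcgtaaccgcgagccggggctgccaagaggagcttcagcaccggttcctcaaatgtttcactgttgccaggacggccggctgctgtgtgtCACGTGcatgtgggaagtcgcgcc
The window of Il2ra is chr2:11642542-11642791, plus strand, and holds neither motif.
Il2ra: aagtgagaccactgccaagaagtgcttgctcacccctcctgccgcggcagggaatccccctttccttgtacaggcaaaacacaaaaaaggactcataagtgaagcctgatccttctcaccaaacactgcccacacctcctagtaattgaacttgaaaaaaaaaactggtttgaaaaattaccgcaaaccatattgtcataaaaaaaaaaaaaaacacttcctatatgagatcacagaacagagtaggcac
The STAT motif was found in 7.02% and the E-box in 6.02% of the 32851 windows of all genes. Of the 10 receptor genes 8 had a window, Il2rb and Il10ra being the exceptions, and the STAT motif was found for Il7r and Il18r1 and the E-box for Il6ra. A match of letters is a description of the sequence and not evidence that a protein binds there.

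Il4ra and Il21r also pair with the common gamma chain, for IL-4 and IL-21. Il4ra (chr7:125552271-125579474) was 83.0 and 120.5 TPM in the Chd8-/- libraries and 81.5 and 83.8 TPM in the WT libraries. One Chd8-/- library lay within the WT values and the other above them, with a log2 fold change of 0.27 ± 0.25 SE (limma adjusted p = 0.744) that was 0.01 without Chd8-/- replicate 2. Il21r (chr7:125603252-125634397) was 151.7 and 141.8 TPM in the Chd8-/- libraries and 169.0 and 169.0 TPM in the WT libraries. Both Chd8-/- libraries were below the WT libraries, and the log2 fold change of -0.20 ± 0.17 SE did not pass the test (limma adjusted p = 0.712). Its direction depended on the scaling, since it was 0.02 when the libraries were scaled to the T cell genes. Per common gamma chain, Il21r was 0.254 and 0.265 in Chd8-/- Tregs and 0.351 and 0.308 in WT Tregs. Relative to Il2rg, Il2rb and Il7r were thus higher and Il21r was lower in both Chd8-/- libraries, whereas the ratios of Il2ra and Il4ra overlapped between the genotypes.

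**Figure D2:**
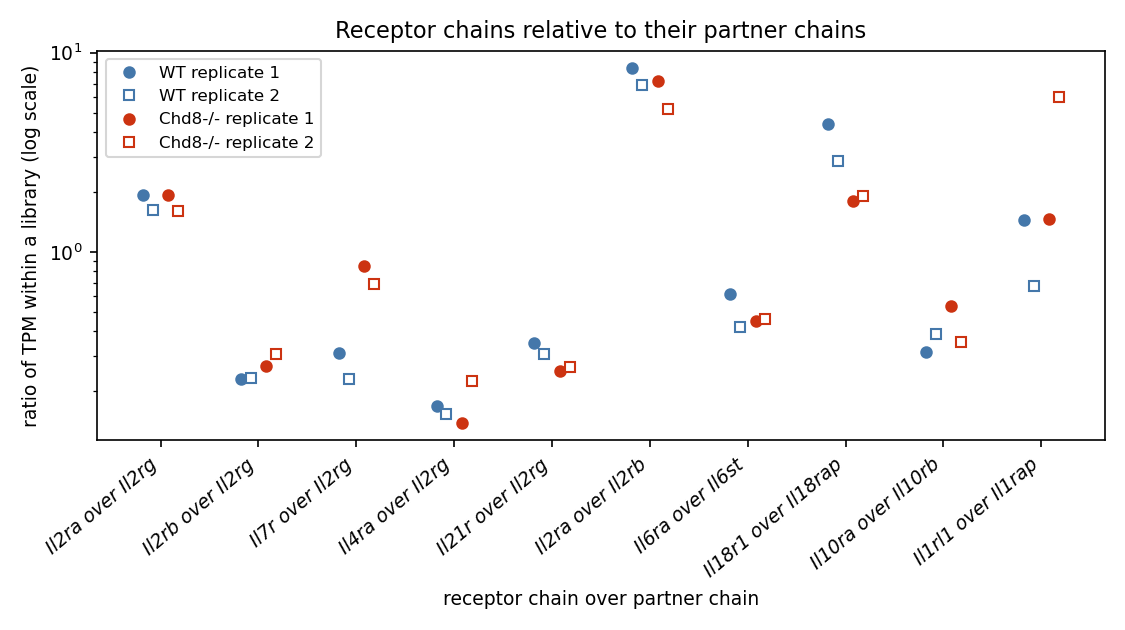
Ratios of TPM between receptor chains in each library, with points for the 2 Chd8-/- and the 2 WT libraries. The ratio of Il7r to Il2rg was 0.687 and 0.846 in Chd8-/- against 0.231 and 0.311 in WT Tregs, whereas that of Il2ra to Il2rg overlapped between 1.61 and 1.94.

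Il6ra, the ligand-binding chain of the IL-6 receptor (chr3:89869324-89913196), was the member with the most negative difference. It was 75.6 and 72.8 TPM in the Chd8-/- libraries and 162.2 and 136.2 TPM in the WT libraries. The 2 Chd8-/- values were close to each other and both below the WT values, with means of 74.2 ± 1.98 TPM (SD, n = 2) and 149.2 ± 18.4 TPM (SD, n = 2) and a fold of 0.497. The log2 fold change was -0.99 ± 0.20 SE, with an unadjusted p of 0.00566 and a limma adjusted p of 0.403. It was -1.12 to -0.87 with any 1 library removed and ranked 48th from the lowest among the 1541 genes with a mean of at least 100 TPM. The gene of its signalling partner gp130, Il6st, was 167.8 and 158.5 TPM in the Chd8-/- libraries and 265.2 and 325.9 TPM in the WT libraries. Il6st was also lower in both Chd8-/- libraries (log2 fold change -0.85 ± 0.19 SE, limma adjusted p = 0.408, unadjusted p = 0.00904). The ratio of Il6ra to Il6st was 0.451 and 0.459 in Chd8-/- Tregs and 0.612 and 0.418 in WT Tregs, and the genotypes overlapped in it. The ratio of Il7r to Il6ra was 6.67 and 5.04 in the Chd8-/- libraries and 0.923 and 0.93 in the WT libraries, so the 2 transcripts were nearly level in WT Tregs and Il7r prevailed in Chd8-/- Tregs.

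**Figure D3:**
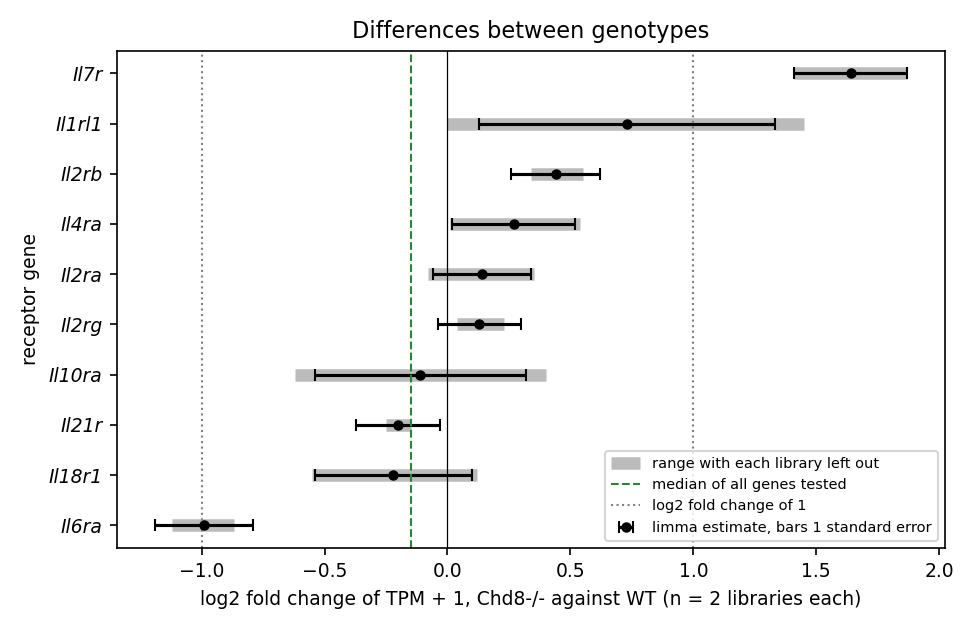
Log2 fold change of log2(TPM + 1), Chd8-/- minus WT, for the 10 receptor genes, with bars for the SE of the limma fit on 4 libraries. Il7r at 1.64 and Il6ra at -0.99 lie at the 2 ends, and the other 8 genes lie between -0.22 and 0.73.

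Il1rl1 and Il18r1 encode receptors of the IL-1 family, for IL-33 and IL-18, and lie next to each other on chromosome 1 (chr1:40404864-40465418 and chr1:40465552-40500854). Il1rl1 was 4.4 and 13.7 TPM in the Chd8-/- libraries and 4.8 and 4.0 TPM in the WT libraries. It was the lowest of the 10 receptors in every library, and the difference between the means (log2 fold change 0.73 ± 0.60 SE, limma adjusted p = 0.714) rested on Chd8-/- replicate 2, the library with the highest myeloid and erythroid marker sums, without which it was 0.00. Mast cells, basophils and innate lymphoid cells can also express ST2. A list of 6 genes (Fcer1a, Cpa3, Mcpt8, Ms4a2, Gata2 and Kit), mainly of mast cells and basophils, summed to 3.5 and 1.4 TPM in the Chd8-/- libraries and to 3.0 and 2.3 TPM in the WT libraries. Mcpt8 was listed at 0 in all 4 and Fcer1a, Gata2 and Ms4a2 at 0.3 TPM or less. None of the 6 is specific to innate lymphoid cells, so this list does not measure them. About 221 and 540 reads lay behind the Chd8-/- values and 175 and 154 behind the WT values, a counting error of 4.3% to 8.06% (SD). The gene of its partner chain Il1rap was 3.0 and 2.3 TPM in the Chd8-/- libraries and 3.3 and 5.9 TPM in the WT libraries (log2 fold change -0.58 ± 0.45 SE, limma adjusted p = 0.693). The ratio of Il1rl1 to Il1rap was 1.47 and 5.96 in the Chd8-/- libraries and 1.45 and 0.678 in the WT libraries, so the groups were barely separated.

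Il18r1 was 40.8 and 25.4 TPM in the Chd8-/- libraries and 36.6 and 38.6 TPM in the WT libraries. The Chd8-/- values enclosed the WT values, and the log2 fold change of -0.22 ± 0.32 SE (limma adjusted p = 0.837) was 0.12 without Chd8-/- replicate 2 and 0.00 after scaling to the T cell genes. Il18rap, the accessory chain needed for IL-18 signalling, was 22.7 and 13.3 TPM in the Chd8-/- libraries and 8.3 and 13.5 TPM in the WT libraries, which overlapped (log2 fold change 0.66 ± 0.43 SE, limma adjusted p = 0.65, and 1.03 without Chd8-/- replicate 2). The ratio of Il18r1 to Il18rap was 1.8 and 1.91 in the Chd8-/- libraries and 4.41 and 2.86 in the WT libraries. It was lower in both Chd8-/- libraries even though neither chain alone separated the genotypes. Several ratios were examined without a share over other gene pairs, and 2 libraries against 2 cannot give an exact two-sided permutation p below 0.333.

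Il10ra, the ligand-binding chain for IL-10 (chr9:45253837-45269149), was 30.4 and 14.5 TPM in the Chd8-/- libraries and 23.5 and 22.1 TPM in the WT libraries. The 2 Chd8-/- libraries differed by more than either did from the WT libraries. The log2 fold change was -0.11 ± 0.43 SE (limma adjusted p = 0.95), it was 0.40 without Chd8-/- replicate 2, and it was 0.11 after scaling to the T cell genes, so no direction can be given. About 268 to 716 reads lay behind each value, a counting error of 3.74% to 6.11% (SD), so the gap between the 2 Chd8-/- libraries was larger than counting error. Il10rb, the second chain of the IL-10 receptor, was 56.5 and 41.0 TPM in the Chd8-/- libraries and 74.4 and 57.2 TPM in the WT libraries (log2 fold change -0.43 ± 0.28 SE, limma adjusted p = 0.649, and -0.20 without Chd8-/- replicate 2).

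A list of 35 other interleukin receptor chains was examined in the same way, of which 21 passed the filter on low values. By limma 0 were called at an adjusted p of 0.05. At an unadjusted p under 0.05, 2 were higher and 3 lower in Chd8-/- Tregs, beside 3.9% and 6.3% of all genes. By log2 fold change 10 were higher and 11 lower, with a median of -0.08. The log2 fold change was 1 or above in 2 and -1 or below in 1, beside 5.12% and 11.6% of all genes. Both Chd8-/- libraries lay above the WT libraries in 5 of the 21 and below them in 8, beside 14.8% and 27.8% of all genes. With quantile normalization 6 lay above and 4 below, and the shares of all genes under that normalization are not given here. Il1r2, the decoy receptor that binds IL-1 without signalling and is known in activated Tregs, was 26.2 and 19.7 TPM in the Chd8-/- libraries and 8.1 and 9.1 TPM in the WT libraries. It had the largest log2 fold change of the list, 1.31 ± 0.31 SE (limma adjusted p = 0.427, unadjusted p = 0.0119). Il17rb, the binding chain for IL-25, was 31.5 and 26.5 TPM in the Chd8-/- libraries and 12.4 and 16.9 TPM in the WT libraries (log2 fold change 0.95 ± 0.30 SE, limma adjusted p = 0.461). These 2 genes were well separated between the genotypes, as was Il7r among the 10.

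On the lower side, besides Il6st, Il17ra, the common chain for IL-17 cytokines, was 157.8 and 138.9 TPM in the Chd8-/- libraries and 217.6 and 227.1 TPM in the WT libraries (log2 fold change -0.58 ± 0.17 SE, limma adjusted p = 0.452). Il27ra, which pairs with gp130 for IL-27, was 108.1 and 76.8 TPM in the Chd8-/- libraries and 130.4 and 146.0 TPM in the WT libraries (log2 fold change -0.59 ± 0.25 SE, limma adjusted p = 0.522, and -0.35 without Chd8-/- replicate 2). Il13ra1, the partner of Il4ra in the IL-13 receptor, was at 1.1 and 0.6 TPM in the Chd8-/- libraries and 2.3 and 1.4 TPM in the WT libraries, a low level (log2 fold change -0.62 ± 0.46 SE, limma adjusted p = 0.684). Il11ra1 was 1.2 and 1.9 TPM against 4.3 and 5.7 TPM (log2 fold change -1.24 ± 0.42 SE, limma adjusted p = 0.471), and its value is uncertain because it has near-identical copies in the mouse genome.

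**Figure D4:**
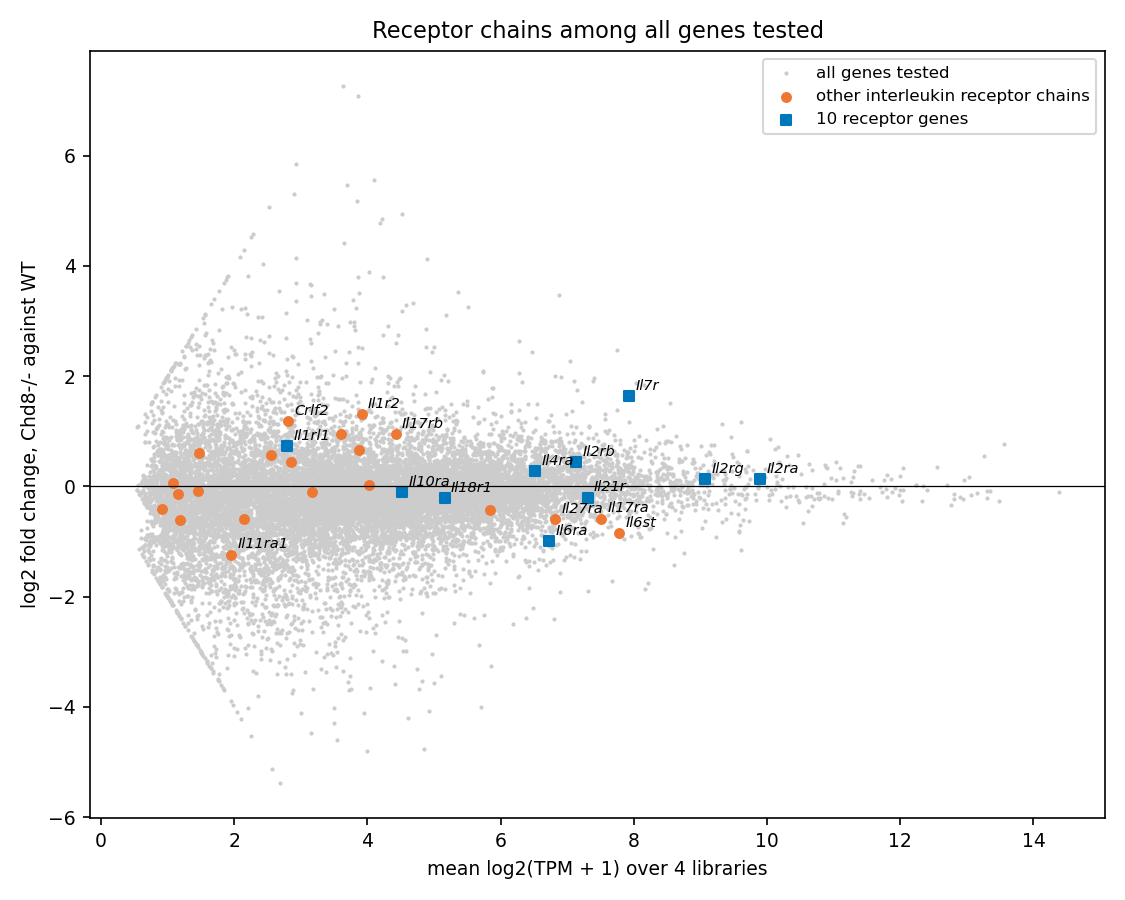
Mean log2(TPM + 1) over the 4 libraries (horizontal axis) against the log2 fold change, Chd8-/- minus WT (vertical axis), for all 15240 genes tested, with the 10 receptor genes as squares and the 21 other receptor chains as circles. Il7r at 1.64 stands near the upper edge of genes of its level and Il6ra at -0.99 lies below most of them, while Il2ra and Il2rg lie near the line at 0.

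Few genes of the ligands of these receptors were measurable in the Tregs, as 3 of the 11 ligand genes passed the filter on low values. Il2 was 0.9 and 0.2 TPM in the Chd8-/- libraries and 0.4 and 4.3 TPM in the WT libraries. Il7 was at most 0.6 TPM, Il6 at most 0.1 TPM, and Il33 was listed at 0 in all 4 libraries. Il4 was 7.6 and 1.9 TPM in the Chd8-/- libraries and 0.0 and 0.3 TPM in the WT libraries (log2 fold change 2.13 ± 0.68 SE on the log2(TPM + 1) scale, limma adjusted p = 0.462). Il10 was 3.8 and 1.7 TPM in the Chd8-/- libraries and 2.8 and 19.4 TPM in the WT libraries, where one WT library was far above the other 3 (log2 fold change -1.29 ± 0.94 SE, limma adjusted p = 0.681, and -0.08 without the highest library). Il13, which was not tested and was singled out after its values were seen, was 37.0 TPM in Chd8-/- replicate 2 and at most 0.4 TPM in the other libraries.

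The JAK kinases, STAT proteins, adaptors and feedback inhibitors that act behind the receptors formed a list of 20 genes, all tested. By log2 fold change 12 were higher and 8 lower in Chd8-/- Tregs, with a median of 0.12, and none reached 1 in either direction. By limma 0 were called at an adjusted p of 0.05. Both Chd8-/- libraries lay above the WT libraries in 7 and below them in 5, beside 14.8% and 27.8% of all genes. With library medians set equal these counts were 10 and 0. That scaling moved the median of all genes from -0.15 to 0.03, and the shares of all genes under it are not given here. At an unadjusted p under 0.05, 0 were lower and 2 were higher (Cish and Socs3), beside 6.3% and 3.9% of all genes. Both encode feedback inhibitors that STAT proteins induce. Cish was 144.8 and 153.7 TPM in the Chd8-/- libraries and 97.75 ± 3.18 TPM (SD, n = 2) in the WT libraries (log2 fold change 0.61 ± 0.17 SE, limma adjusted p = 0.446). Socs3 was 63.7 and 94.8 TPM in the Chd8-/- libraries and 44.5 and 45.1 TPM in the WT libraries (log2 fold change 0.78 ± 0.27 SE, limma adjusted p = 0.478, and 0.50 without Chd8-/- replicate 2). For both genes the groups did not overlap. Pim1, a kinase gene induced by STAT5, was 319.9 and 258.4 TPM against 171.8 and 228.0 TPM (log2 fold change 0.54 ± 0.23 SE, limma adjusted p = 0.536). Socs1 was 36.2 and 23.3 TPM against 25.3 and 11.8 TPM, and the groups overlapped (log2 fold change 0.71 ± 0.48 SE, limma adjusted p = 0.658). Bcl2 was 236.8 and 198.4 TPM against 192.3 and 248.1 TPM, again with overlap (log2 fold change -0.01 ± 0.22 SE, limma adjusted p = 0.962, and 0.12 without Chd8-/- replicate 2).

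Of the kinases, Jak3, whose product binds the common gamma chain, was 89.4 and 97.9 TPM in the Chd8-/- libraries and 70.7 and 61.7 TPM in the WT libraries (log2 fold change 0.50 ± 0.20 SE, limma adjusted p = 0.511). Jak1, which serves the partner chains, was 209.6 and 145.9 TPM against 212.9 and 229.3 TPM (log2 fold change -0.34 ± 0.24 SE, limma adjusted p = 0.676), and its log2 fold change was -0.08 without Chd8-/- replicate 2. The STAT5 genes had opposite signs. Stat5a was 23.4 and 31.7 TPM in the Chd8-/- libraries and 20.2 ± 0.283 TPM (SD, n = 2) in the WT libraries (log2 fold change 0.41 ± 0.28 SE, limma adjusted p = 0.661, and 0.20 without Chd8-/- replicate 2). Stat5b was 28.5 and 39.4 TPM against 41.8 and 39.7 TPM (log2 fold change -0.27 ± 0.27 SE, limma adjusted p = 0.755, and -0.50 without Chd8-/- replicate 2).

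The genes whose pattern over the 4 libraries lay nearest to that of Il2ra were found among 11300 genes with a mean of at least 5 TPM, by the root mean square distance of centred log2(TPM + 1). They were Kpna3 (0.0177), Mbnl1 (0.0239), Ptcd3 (0.0265), Mtf1 (0.0271) and Fis1 (0.0281). None of the 5 is an interleukin receptor gene. With 4 libraries and little difference between them in Il2ra, such a likeness is a description of these libraries.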

How the data were processed

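RNA-seq values of sorted YFP+ Tregs of 2 WT and 2 Chd8-/- mice were used, grouped by their titles. The authors trimmed reads with Trim Galore 0.4.2 and cutadapt 1.9.1, aligned them to mm10 with STAR 2.6.1e, removed duplicates, counted reads on RefSeq genes with featureCounts 1.6.2 and deposited TPM rounded to 0.1. Strand use in counting is not given in the sources used here, so reads of overlapping genes may be shared.

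TPM were analysed as log2(TPM + 1) with a filter of at least 1 TPM in 2 or more libraries, leaving out 4 entries under repeated names. Fold changes on this scale understate differences of low genes. Differences between genotypes were tested two-sided in R 4.3.3 by limma 3.58.1, using lmFit and eBayes with a mean-variance trend and Benjamini-Hochberg adjustment over all 15240 genes, after a test on simulated data. "Above" and "below" count genes whose 2 libraries per group do not overlap. Reads behind a value were estimated from the step of 1 read in genes shorter than 150 nt, where 98.0% to 99.4% of values lay within 0.1 read of a whole number, and from RefSeq exon lengths. They cover counting error only, as the processing described names no molecular identifiers. The study's methods name a Next GEM assay beside an Illumina RNA-seq kit. Which of them made these libraries is not stated, so the use of identifiers is unknown.

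The members and gene lists were chosen with earlier results of these data known. Named genes were all members, Chd8, partner chains, up to 10 genes per other list with an absolute log2 fold change of at least 1 or a mean of at least 20 TPM (by absolute log2 fold change), and the 5 genes nearest to Il2ra. ATAC-seq and CHIP-seq peak tables, in mm39 coordinates without gene names, were not analysed here.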

Additional observations from a re-analysis of the deposited data

How the results depend on the processing

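With 2 libraries per genotype, differences of the size of those of Il7r and Il6ra did not pass the test over all genes. The sums of myeloid and of erythroid markers were highest in one Chd8-/- library and lowest in the other, and the part of this RNA in this outcome was not tested. Of 130 values of the 10 receptor genes under 13 alternatives, 8 reversed, and 6 genes, Il7r, Il6ra, Il2rb, Il2rg, Il4ra and Il1rl1, had none. No member was called in any. The reversals were Il2ra at -0.08 without Chd8-/- replicate 1, Il18r1 at 0.12 and Il10ra at 0.40 without Chd8-/- replicate 2, Il10ra at 0.05 with quantile normalization and at 0.07 with library medians set equal, and Il21r at 0.02, Il18r1 at 0.00 and Il10ra at 0.11 with scaling to Cd3e, Cd3g and Cd4, an alternative chosen after seeing the data. The cause was not tested. Signs were compared before rounding. Il4ra at 0.01 and Il1rl1 at 0.00 without Chd8-/- replicate 2 were therefore not counted as reversals, but without that library these 2 genes had no clear direction. Leaving out each library in turn gave -0.08 to 0.35 for Il2ra, -0.55 to 0.12 for Il18r1 and -0.62 to 0.40 for Il10ra. The median of all genes moved from -0.15 to 0.00 with quantile normalization, 0.03 with equal medians and 0.07 with scaling to T cell genes. The adjusted p of Il7r ranged from 0.204 to 0.971 and that of Il6ra from 0.208 to 0.971.

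Without overlap there were 6 members instead of 4 with library medians set equal and with scaling to T cell genes (5 above and 1 below). The share of all genes without overlap under these scalings is not given here. Members at -1 or below numbered 1, Il6ra, with a pseudocount of 0.1 TPM and with quantile normalization, instead of 0. Other receptor chains at 1 or above numbered 1 with a pseudocount of 5 TPM and 4 with quantile normalization, with equal medians and with scaling to T cell genes. Those at -1 or below numbered 2 with a pseudocount of 0.1 TPM and 0 with a pseudocount of 5 TPM, a mean of at least 5 TPM or quantile normalization. Their median was 0.44 with a mean of at least 5 TPM, which tests fewer chains. With 1 library left out there were 1 to 2 members at 1 or above (2 without Chd8-/- replicate 1), 0 to 1 at -1 or below, and 5 to 9 without overlap (9 without Chd8-/- replicate 1 and 8 without Chd8-/- replicate 2), as fewer libraries overlap less often by construction. The other chains then numbered 2 to 6 at 1 or above (6 without Chd8-/- replicate 1, 4 without Chd8-/- replicate 2 and 4 without WT replicate 1) and 1 to 3 at -1 or below (3 without Chd8-/- replicate 2), with a median of -0.30 to 0.30, the latter without Chd8-/- replicate 1.

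With a replicate block the log2 fold change of Il7r was 1.64 (adjusted p = 0.552) and 0 genes were called. Deviations of same-numbered libraries had a correlation of -0.0117 across genes. With so few libraries this value cannot decide whether same-numbered libraries were paired, and no label describes a pairing. The planned ATAC-seq and CHIP-seq comparisons near the members were not run.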

Other observations

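The receptor genes were read beside 2 lists of genes of resting and of effector Tregs, which were chosen with earlier results of these data known. Of the 8 genes of resting Tregs, 7 were lower by log2 fold change in Chd8-/- Tregs, 6 with no overlap between the groups, and the median was -0.72. Of all 15240 genes tested 9367 were lower and 27.8% lay below without overlap, with a median of -0.15. By limma 0 were called at an adjusted p of 0.05, and 5 were lower at an unadjusted p under 0.05, as were 6.3% of all genes. Bach2, a repressor of effector programmes, was 7.0 and 8.1 TPM against 19.2 and 24.6 TPM (log2 fold change -1.41, limma adjusted p = 0.408). Il7r, which is not on this list, is known to be high in many resting T cells but low in resting Tregs. It had a higher value in Chd8-/- Tregs. Satb1 was the 1 gene of the list with a higher value (log2 fold change 0.55, and 0.25 without Chd8-/- replicate 2).

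Of the 16 genes of effector Tregs, 12 were higher and 4 lower by log2 fold change, 12 lay above with no overlap, as did 14.8% of all genes, and the median was 0.54. By limma 0 were called at an adjusted p of 0.05, and 8 were higher and 1 lower at an unadjusted p under 0.05, beside 3.9% and 6.3% of all genes. Itgae, the integrin CD103 that binds E-cadherin, was 120.4 and 99.2 TPM in the Chd8-/- libraries and 23.0 and 26.8 TPM in the WT libraries, with a log2 fold change of 2.09. Batf, a transcription factor of effector Tregs, was 502.4 and 784.6 TPM against 231.1 and 207.1 TPM (log2 fold change 1.52, limma adjusted p = 0.402). Klrg1, a receptor of terminally differentiated Tregs, went the other way, at 42.4 and 53.5 TPM against 101.5 and 82.0 TPM (log2 fold change -0.92, limma adjusted p = 0.433). The ST2 gene Il1rl1, an effector Treg marker, overlapped between the genotypes at 4.4 and 13.7 TPM against 4.8 and 4.0 TPM.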
